A study of Caenorhabditis elegans with 45 samples.

Results

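The 7 genes described here encode Dicer of *C. elegans* and proteins that work with it: *dcr-1*, *rde-4*, *pir-1*, *drh-1*, *drh-3*, *rrf-3* and *eri-1*. They were chosen by name as genes of double-stranded RNA processing and of the ERI complex, not by a measured value. Earlier results of these data were known at that point. All 7 were among the 18589 genes of the deposited table of normalized counts. RNA of whole hermaphrodites on day 1 of adulthood was sequenced in 45 libraries from 5 strains, with 3 biological replicates in each of 15 groups. The strains were the laboratory reference N2 and the wild isolates JU1088, EG4348, CB4856 and QX1211, each represented by 1 isogenic line. Every worm ate HT115 *E. coli* at 20 °C, and the bacteria carried either the empty pL4440 vector (the control) or a pL4440 clone that makes double-stranded RNA of the germline gene *par-1* or *pos-1*. Feeding such bacteria is the standard way to start RNAi, the destruction of a matching mRNA. In the study's terms germline RNAi works in N2, works very well in JU1088 and less well in EG4348, and mostly fails in CB4856 and QX1211. QX1211 was maintained at 18 °C before the experiment and the wild strains were kept on plates with agarose, so these conditions and the genotype cannot be told apart.

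DCR-1 is the only Dicer of the worm, an RNase III enzyme that cuts long double-stranded RNA into small interfering RNAs (siRNAs) and hairpin precursors into microRNAs. It works in more than one complex. In the pathway that answers foreign double-stranded RNA, its partners include the double-stranded RNA binding protein RDE-4 and the helicase DRH-1, a relative of mammalian RIG-I with a role in antiviral defence. In the ERI complex, DCR-1 acts with the RNA-dependent RNA polymerase RRF-3, the exonuclease ERI-1 and other proteins to make an endogenous class of siRNAs, the 26G RNAs, and loss of *rrf-3* or *eri-1* makes worms hypersensitive to fed double-stranded RNA. PIR-1 is an RNA phosphatase bound to Dicer. DRH-3 is a Dicer-related helicase that the polymerases need to make secondary siRNAs in the germline.

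Between 4269033 and 17865356 reads were assigned per library (median 7478891). As a check of the labels, the targets were read first. The log2 fold change of *pos-1* was -2.57 in N2, -3.59 in JU1088 and -1.23 in EG4348, whereas the values of CB4856 (6181 on *pos-1* RNAi, 6416 on empty vector) and QX1211 (5027 and 5472) did not pass the test. A difference of the *par-1* transcript on *par-1* RNAi passed in no strain (log2 fold change -0.18, -0.13, -0.04, -0.10 and 0.24 for N2, JU1088, EG4348, CB4856 and QX1211 in that order, each with an SE of 0.17, adjusted P from 0.497 to 1 in edgeR) nor over strains (-0.04, adjusted P = 0.837). Of the 45 libraries, 3 carry 1 shared fragment length estimate in the authors' processing in place of their own (replicate 1 of QX1211 on empty vector, replicate 3 of CB4856 on *par-1* RNAi and replicate 2 of JU1088 on *pos-1* RNAi). In these libraries the short members stood high: *pir-1* was at 515, 421 and 553 normalized counts and *eri-1* at 654, 590.4 and 721 in that order, each the highest value of its strain. The median log2 deviation from the other replicates was higher for short than for long genes there, by 0.28, 0.27 and 0.33. This was not limited to these libraries. In replicate 3 of EG4348 on *pos-1* RNAi, with its own estimate, it was higher by 0.35. There *pir-1* was at 509, the highest value of EG4348. Markers of the germline and oocytes were all present (none of 13 was at 0 in any library), with a summed level of 2838 to 4280.05 TPM. In bulk RNA of whole worms, fewer cells of a type and less RNA per cell cannot be told apart.

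All 7 genes were expressed in every library, and the lowest estimated count of any of them was 190 reads, for *pir-1*. Per length, as the median TPM (a read share per unit of transcript length) over the 45 libraries, *rde-4* was the most abundant at 132, followed by *pir-1* at 88.2, *eri-1* at 56.3, *drh-3* at 53.7, *dcr-1* at 46.1, *drh-1* at 35.6 and *rrf-3* at 23.8. The range of *rde-4* (95.3 to 162) did not overlap that of *eri-1* (47.3 to 81.8), *drh-3* (45.9 to 67.1), *dcr-1* (36.6 to 52.0), *drh-1* (27.6 to 42.2) or *rrf-3* (18.2 to 28.0). The neighbours *eri-1*, *drh-3* and *dcr-1* overlapped. By the median, the RNA of the ERI polymerase was thus the scarcest and that of the double-stranded RNA binding protein the most abundant of the set.

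*dcr-1* (WBGene00000939; III:8071967-8080281, minus strand, WBcel235) was nearly level across the whole design. Its normalized count, the deposited value scaled for library size and transcript length, ran from 1655 to 1922 over the 9 libraries of N2, from 1527 to 1904 in JU1088, from 1521 to 1823 in EG4348, from 1665 to 1874 in CB4856 and from 1621 to 1897 in QX1211. All 5 ranges overlapped. Between the lowest and the highest of the 15 group means (1656 in JU1088 on *par-1* RNAi and 1845 in JU1088 on *pos-1* RNAi) the ratio was 1.11. Among the 4532 genes whose mean normalized count reached 300 the median ratio was 1.37, and only 0.331% of these genes had a ratio as small as that of *dcr-1*. The same ratio was 1.25 for *pir-1* and *eri-1*, 1.33 for *drh-3*, 1.38 for *drh-1*, 1.39 for *rrf-3* and 1.45 for *rde-4*, which lay between the lowest 18.4% and the lowest 62.6% of these genes. The other 6 members therefore varied about as much as other genes of similar level, and Dicer itself less.

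**Figure D1:**
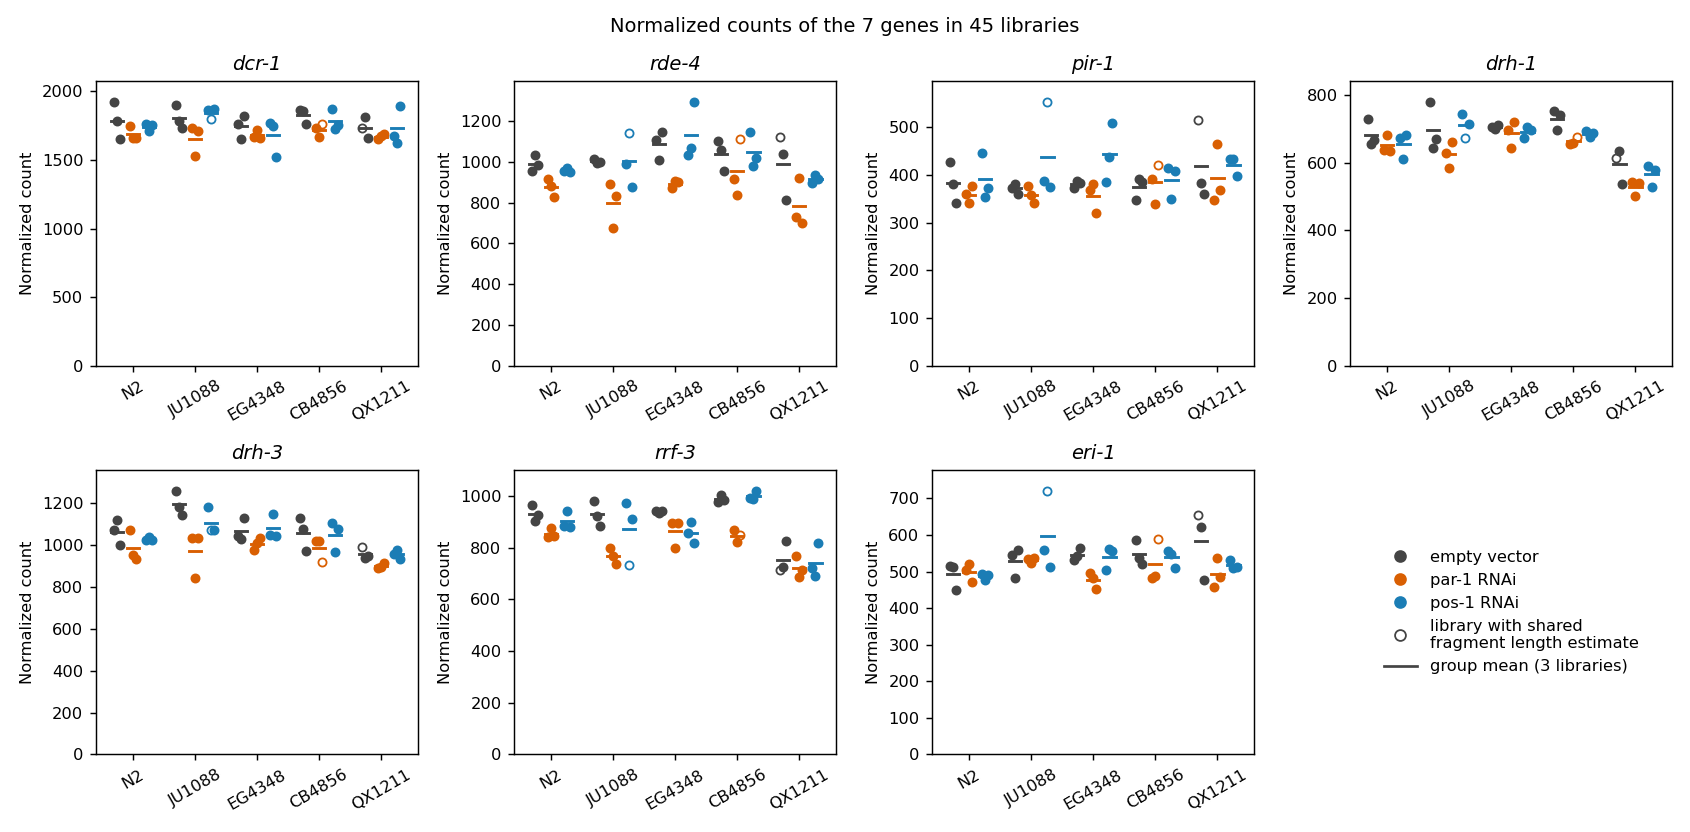
Normalized counts of the 7 genes (vertical axes, from 0) in the 45 libraries, by strain and food; each point is a library, lines are means of 3 libraries, and open points are the 3 libraries with a shared fragment length estimate. *dcr-1* stays between 1521 and 1922 throughout, whereas the group means of *drh-1*, *drh-3* and *rrf-3* are lowest in QX1211 on all 3 foods.

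To ask which members differ between the strains without a trigger, the 5 strains were first compared on empty vector. A gene was counted as different at a genome-wide adjusted P under 0.1 (edgeR quasi-likelihood F test over all 5 strains, Benjamini-Hochberg adjustment over all genes). Of the 7 members 3 passed, *rrf-3* (adjusted P = 0.00301), *drh-3* (0.0458) and *drh-1* (0.0739), while 35.1% of the 16490 genes tested did. On *par-1* RNAi *drh-1* (0.00239) and *rrf-3* (0.0122) passed, against 48.4% of 16907 genes, and on *pos-1* RNAi again *drh-1* (0.0193) and *rrf-3* (0.0362), against 33.8% of 16766 genes. The share of members that differed was thus near or below the background. *dcr-1*, *rde-4*, *pir-1* and *eri-1* passed on no food, with adjusted P from 0.166 to 0.888. Without length offsets (described for *drh-1* below) *rde-4* passed on all 3 foods (0.084, 0.0378 and 0.0677) and *eri-1* on empty vector (0.0723). *rde-4* also passed on *pos-1* RNAi without the JU1088 library with a shared fragment length estimate (0.0696) and on *par-1* RNAi without QX1211 replicate 2 (0.0695), and *eri-1* on empty vector without QX1211 replicate 3 (0.0559) and on *pos-1* RNAi without JU1088 replicate 3 (0.088).

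In the comparisons of single strains that passed, QX1211 was the low strain. Of the 210 comparisons of a member between 2 strains on 1 food, 26 passed, and all 26 were lower values in QX1211. They lay among the 84 comparisons that involve QX1211 (8 on empty vector, 9 on *par-1* RNAi and 9 on *pos-1* RNAi). In the 126 comparisons without QX1211, edgeR passed 0 members and DESeq2 0, with 7 at an unadjusted P under 0.05 in edgeR, while 9.14% of the tests of all genes in these comparisons passed on empty vector, 15.5% on *par-1* RNAi and 10.1% on *pos-1* RNAi. Of all genes, 11.5%, 10.5%, 13.5% and 10.4% were lower in QX1211 than in N2, JU1088, EG4348 and CB4856 on empty vector, 17.9%, 12.6%, 18.3% and 12.5% on *par-1* RNAi and 9.1%, 13.3%, 10.4% and 8.12% on *pos-1* RNAi. Among the genes with a mean of 300 or more, the shares lower in QX1211 were 16.2% to 27.1%, 14.9% to 36.4% and 10.5% to 16.7%. The 4 comparisons on 1 food share the same 3 QX1211 libraries and are not independent of each other. In the study QX1211 diverges most from the N2 genome and has the largest numbers of genes with missing or low DNA coverage. Whether poor alignment of diverged sequence lowered any value here was not tested. Without length offsets 5 of the 126 comparisons between other strains passed, and without the 3 libraries with a shared fragment length estimate 2, both of *rrf-3*. Of the 84 comparisons with QX1211, 24 passed without length offsets, and 23 of these were lower in QX1211.

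*rrf-3* (WBGene00004510; II:8162465-8168651, plus strand), the polymerase of the ERI complex, passed the strain test on all 3 foods. On empty vector its normalized counts were 964, 903 and 928 in N2, 981, 924 and 884 in JU1088, 941, 934 and 943 in EG4348, 977, 1003 and 984 in CB4856, and 713, 726 and 825 in QX1211. The 3 QX1211 libraries were below all 12 others, as they were for 4.65% of all genes. The log2 difference of QX1211 was -0.31 ± 0.07 (SE) from N2 (adjusted P = 0.0045), -0.30 from JU1088 (0.00631), -0.34 from EG4348 (0.00194) and -0.40 from CB4856 (0.000695). Each of the 4 passed with any 1 of its libraries left out. On *pos-1* RNAi the counts in QX1211 were 722, 690.2 and 817, against 882 to 945 in N2 and 990.4 to 1021 in CB4856. There QX1211 differed from N2 (log2 difference -0.29, adjusted P = 0.0674), from CB4856 (-0.43, 0.0078) and from JU1088 (-0.24, 0.0991). Of the 6 libraries compared, leaving out 1 ended the call against N2 for 5 and that against JU1088 for 4, and the latter value ran from -0.35 without JU1088 replicate 2 to -0.15 without JU1088 replicate 1. Its libraries overlapped with those of JU1088 (734, 910.2 and 975), of which the lowest was the library with a shared fragment length estimate.

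On *par-1* RNAi *rrf-3* was at 768, 687 and 714 in QX1211 and at 799.6, 768 and 737 in JU1088, and these 2 strains overlapped (log2 difference -0.11, adjusted P = 0.342). QX1211 was still below N2 (-0.26), EG4348 (-0.29) and CB4856 (-0.25), with adjusted P from 0.00475 to 0.0206, though the difference from CB4856 did not pass without QX1211 replicate 2 (-0.18). In all, 10 of the 12 comparisons of *rrf-3* with QX1211 passed and all 12 were negative. Among the other 4 strains *rrf-3* was highest in CB4856 on empty vector (988 ± 13.6, SD, n = 3) and on *pos-1* RNAi (1002 ± 16.8, n = 3), without a difference that passed. Leaving out CB4856 *pos-1* RNAi replicate 3, or QX1211 *pos-1* RNAi replicate 1 or 2, ended the strain test of *rrf-3* on *pos-1* RNAi (adjusted P = 0.109, 0.128 and 0.144), and no other setting or left-out library ended its strain test on any food.

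*drh-1* (WBGene00001090; IV:6607376-6613353, minus strand), the RIG-I relative, was the other member that passed the strain test on all 3 foods. Its group mean was lowest in QX1211 on each, as was that of *drh-3*. On empty vector its normalized counts were 615, 634 and 538 in QX1211, against 657 to 728 in N2, 643 to 779 in JU1088, 699 to 711 in EG4348 and 696 to 754 in CB4856. On *par-1* RNAi they were 543, 503 and 540.3 in QX1211 and 586 to 721 in the other 12 libraries. On *pos-1* RNAi they were 591, 529 and 579, and 611 to 745 elsewhere. The QX1211 libraries were thus below every other library on the same food (as for 4.65% of all genes on empty vector, 4.97% on *par-1* RNAi and 4.28% on *pos-1* RNAi), and 11 of the 12 comparisons passed, with log2 differences from -0.20 to -0.40. The exception was N2 on empty vector (-0.20, adjusted P = 0.113). The calls against JU1088 on empty vector (-0.23) and N2 on *pos-1* RNAi (-0.21) were each lost without any 1 of 4 of the 6 libraries compared. Those against EG4348 on empty vector and CB4856 on *pos-1* RNAi were each lost without 1 library (QX1211 replicate 3 and QX1211 replicate 2), and the other 7 passed with any 1 library left out.

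The size of the *drh-1* difference depended on the length correction. Reads are divided by an effective length that Salmon computes for each library from fragment sizes, sequence and GC content, and for *drh-1* this length averaged 2179 bases in QX1211 against 1891 to 2067 in the other strains, although its 2 annotated transcripts are 3300 and 2340 bases in every strain. Relative to other strains on the same food the effective length of *drh-1* in QX1211 was 0.06 to 0.28 higher in log2, where the median of 6778 well covered genes lay between -0.04 and 0.05. Without length offsets *drh-1* was still lower in QX1211 in 12 of 12 comparisons, but with log2 differences of -0.06 to -0.26, and only 3 passed. The strain test then failed on empty vector (adjusted P = 0.279) and on *pos-1* RNAi (0.554). For *rrf-3*, whose effective length differed less (-0.05 to 0.12), 8 of 12 comparisons passed without the offsets. For *drh-3* 6 of 12 then passed and for *rde-4* 5 of 12, all lower in QX1211, which was more than for *drh-1*. On empty vector the strain test of *drh-1* also ended without any 1 of 8 libraries (each EG4348 and CB4856 library, and QX1211 replicates 1 and 3, adjusted P from 0.104 to 0.228). On *pos-1* RNAi it ended without QX1211 replicate 2 (0.138).

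The neighbouring *drh-2* (WBGene00001091) is annotated as a pseudogene related to *drh-1*, and reads that match both are divided by estimation. It was scarcer, at 164 ± 21.2 (n = 3) normalized counts on empty vector in N2 and 149.9, 120.3, 108 and 98.2 in JU1088, EG4348, CB4856 and QX1211, and it differed between strains (adjusted P = 0.00255). How much of the difference in either gene lies in the division of shared reads was not tested.

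With the length offsets *drh-3* (WBGene00008400; I:7820831-7826378, plus strand) showed a weaker form of the same pattern. On empty vector it was at 991, 939 and 951 normalized counts in QX1211 and highest in JU1088, at 1259.8, 1181 and 1144. The log2 difference between these 2 strains was -0.32 ± 0.07 (SE, adjusted P = 0.00795), with no overlap. All 12 comparisons were negative in QX1211, from -0.32 to -0.11, but only 3 passed. Of these, that against EG4348 on *par-1* RNAi (-0.19) lost its call without any 1 of its 6 libraries, and that against JU1088 on *pos-1* RNAi (-0.22) without 4 of 6. The strain test of *drh-3* on empty vector ended without JU1088 replicate 1 (adjusted P = 0.133) or QX1211 replicate 2 (0.110). *rde-4* (WBGene00004326; III:10217302-10218646, minus strand) was lower in QX1211 than in CB4856 on *par-1* RNAi (log2 difference -0.31, adjusted P = 0.0982, overlapping libraries) and than in EG4348 on *pos-1* RNAi (-0.32, 0.0565, no overlap), while on empty vector it was at 991 ± 161 there and 990.1 ± 39.2 in N2. The first difference was -0.15 without CB4856 replicate 3, a library with a shared fragment length estimate, and the second -0.21 without EG4348 replicate 3. Each lost its call without any 1 of 4 of the 6 libraries compared. All 12 comparisons of *rde-4* with QX1211 were negative, from -0.32 to -0.0043, and 2 passed.

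**Figure D2:**
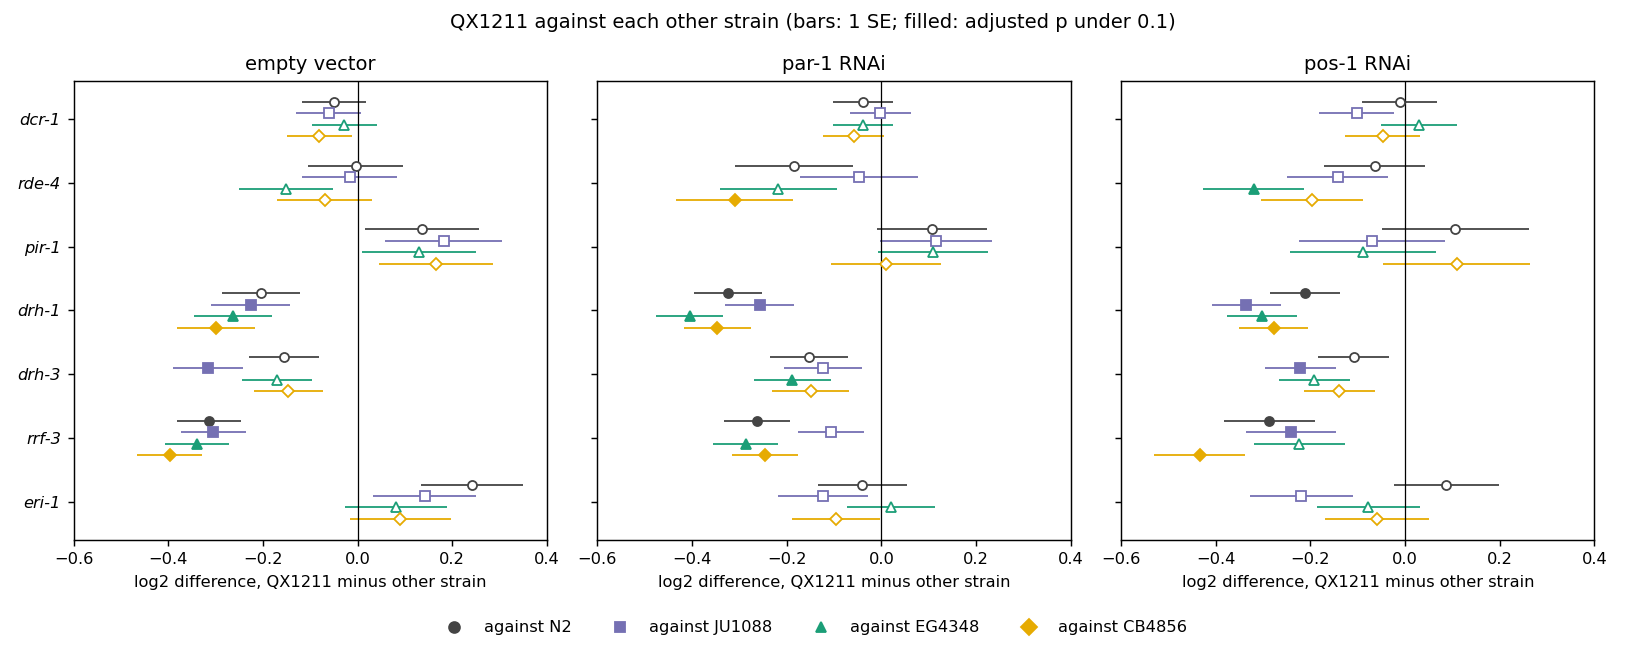
Difference of QX1211 from each other strain (log2, horizontal axes; bars are 1 SE) for the 7 genes on the 3 foods, with filled symbols where the adjusted P is under 0.1. *rde-4*, *drh-1*, *drh-3* and *rrf-3* lie left of 0 in all 12 comparisons each. *dcr-1* does so in 11 and stays within -0.10 and 0.03.

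With length offsets no comparison of *pir-1* or *eri-1* with QX1211 passed. Without them 1 comparison of *eri-1* passed, with the higher value in QX1211, and 0 of *pir-1*. *pir-1* (WBGene00011967; II:9177300-9178633, plus strand) lay between 321 and 553 normalized counts, and its log2 differences of QX1211 from another strain ran from -0.09 to 0.18. *eri-1* (WBGene00001332; IV:415635-419958, minus strand) lay between 449.8 and 721, with differences from -0.22 to 0.24. Both extremes of *eri-1* involve a library with a shared fragment length estimate. *pir-1* overlaps *sym-2* and *twk-4*, and *rrf-3* overlaps T05C12.11, each on the opposite strand, and the reads were counted with their strand. The transcripts of *pir-1* are 900 and 793 bases in N2, CB4856 and QX1211 and 888 and 781 bases in JU1088 and EG4348. All other transcripts of the 7 genes have 1 length in the 5 strain transcriptomes.

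Germline and oocyte markers were also low in QX1211 on empty vector, but their summed level was lowest in JU1088 on both RNAi foods. On empty vector 4 to 8 of the 13 germline and oocyte markers were lower in QX1211 than in another strain and 1 was higher, with medians of -0.13 to -0.32 in log2. Their summed level was 3235 to 3942 TPM in QX1211 and 3650.2 to 4219 TPM in the other strains, on *par-1* RNAi 3053 to 3439 and 2861 to 3904, and on *pos-1* RNAi 3692 to 3823 and 2838 to 4280.05. The value of 2838 on *pos-1* RNAi is the JU1088 library with a shared fragment length estimate. Group means on that food were 3742 TPM in QX1211, 3580 in JU1088, 3856 in EG4348, 3900 in N2 and 4117 in CB4856. On *par-1* RNAi they were 3295 TPM in QX1211, 3251 in JU1088, 3828 in EG4348, 3709 in N2 and 3410 in CB4856. Of 11 sperm markers 10 differed between strains on empty vector, with summed levels of 76.6 to 117 TPM in QX1211 and 10.7 to 222 elsewhere. The part of these tissues in the low values of *rrf-3*, *drh-1* and *drh-3* was not tested.

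The next question was whether the members respond to RNAi. A change in expression on RNAi was called at an adjusted P under 0.1 together with a fold change above 1.5, and "fell" is used for an adjusted P under 0.1 alone. On *par-1* RNAi 0 of the 7 members were called in any strain with edgeR, where the share of all genes called was 1.16% in N2, 8.5% in JU1088, 2.38% in EG4348, and 4.4% and 5.15% in CB4856 and QX1211. DESeq2 called 0 as well, and the unadjusted P was under 0.05 for 10 of the 35 values in edgeR. Smaller falls did pass for 6 of the 35, in JU1088 (where 5.76% of all genes fell), CB4856 (2.03%) and QX1211 (3.42%), with 0 in N2 (0.522%) and EG4348 (0.732%). Among genes with a mean of 300 or more, the level of all 7 members, the shares that fell were 19.5% in JU1088, 6.2% in CB4856 and 10.5% in QX1211. In JU1088 *drh-3* fell by 0.30 in log2 (SE 0.07, adjusted P = 0.00728), *rrf-3* by 0.27 (0.014) and *rde-4* by 0.32 (0.0822), each with all 3 treated libraries below the controls, as for 13% of all genes.

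The JU1088 libraries show the size of this change. *drh-3* was at 1259.8, 1181 and 1144 on empty vector and at 1036, 844 and 1032 on *par-1* RNAi. *rrf-3* went from 981, 924 and 884 to 799.6, 768 and 737, and *rde-4* from 1016, 994 and 998 to 889, 677 and 831. In CB4856 *rrf-3* fell by 0.23 (adjusted P = 0.0644), from 977 to 1003 down to 823 to 867. In QX1211 *rde-4* fell by 0.37 (0.0613) and *drh-1* by 0.20 (0.0896), both with overlapping libraries. These calls were unstable: of the 6 libraries compared, leaving out 1 ended the call of *rrf-3* in CB4856 for any of the 6, of *drh-1* in QX1211 for 5, and of *rde-4* for 4 in QX1211 and 4 in JU1088. It also ended that of *drh-3* in JU1088 for 1, replicate 2 on *par-1* RNAi (-0.20), and that of *rrf-3* in JU1088 for 0. Without replicate 1 of QX1211 on empty vector, the library with a shared fragment length estimate, the change of *rde-4* was -0.24 and that of *drh-1* -0.15, and neither passed. With a model of each strain alone, 2 of the 35 values passed, of which 1 was among these 6.

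Over the 5 strains together the falls were small and shared. The fold change averaged over strains was -0.26 ± 0.05 (SE) in log2 for *rde-4* (adjusted P = 0.000348), -0.17 ± 0.03 for *rrf-3* (0.000149), -0.14 ± 0.03 for *drh-3* (0.000884), -0.12 ± 0.03 for *drh-1* (0.00316) and -0.09 ± 0.03 for *dcr-1* (0.0208). The change was -16.3% for *rde-4* and -5.75% for *dcr-1*, and each of the 5 was lower in 5 of 5 strains. *eri-1* (-0.10, adjusted P = 0.115, lower in 3 of 5 strains) and *pir-1* (-0.07, 0.518, 4 of 5) did not pass. None of the 7 reached a fold change of 1.5, as 10.3% of all genes did with a call.

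The background for this comparison is wide. On *par-1* RNAi 14.3% of all genes fell, but so did 42.9% of the genes with at least 300 normalized counts, the level of all 7 members, while the median of all genes was 0.07 in log2. Germline and oocyte markers moved the same way, 11 of 13 lower and 0 higher with a median of -0.17, and their summed level ran from 2861 to 3904 TPM on *par-1* RNAi and from 3235 to 4219 TPM on empty vector. Their part in the fall was not tested. The fall of *dcr-1* was lost without length offsets (-0.05, adjusted P = 0.227), and *eri-1* passed with the stricter filterByExpr filter (0.0887), without the 3 libraries with a shared fragment length estimate (0.0339), and without any 1 of 7 libraries (replicate 3 on empty vector of N2, CB4856 or QX1211, replicate 2 on empty vector of JU1088, and on *par-1* RNAi replicate 2 of N2 or QX1211 and replicate 3 of CB4856, adjusted P from 0.022 to 0.0921). No left-out library ended any of the 5.

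**Figure D3:**
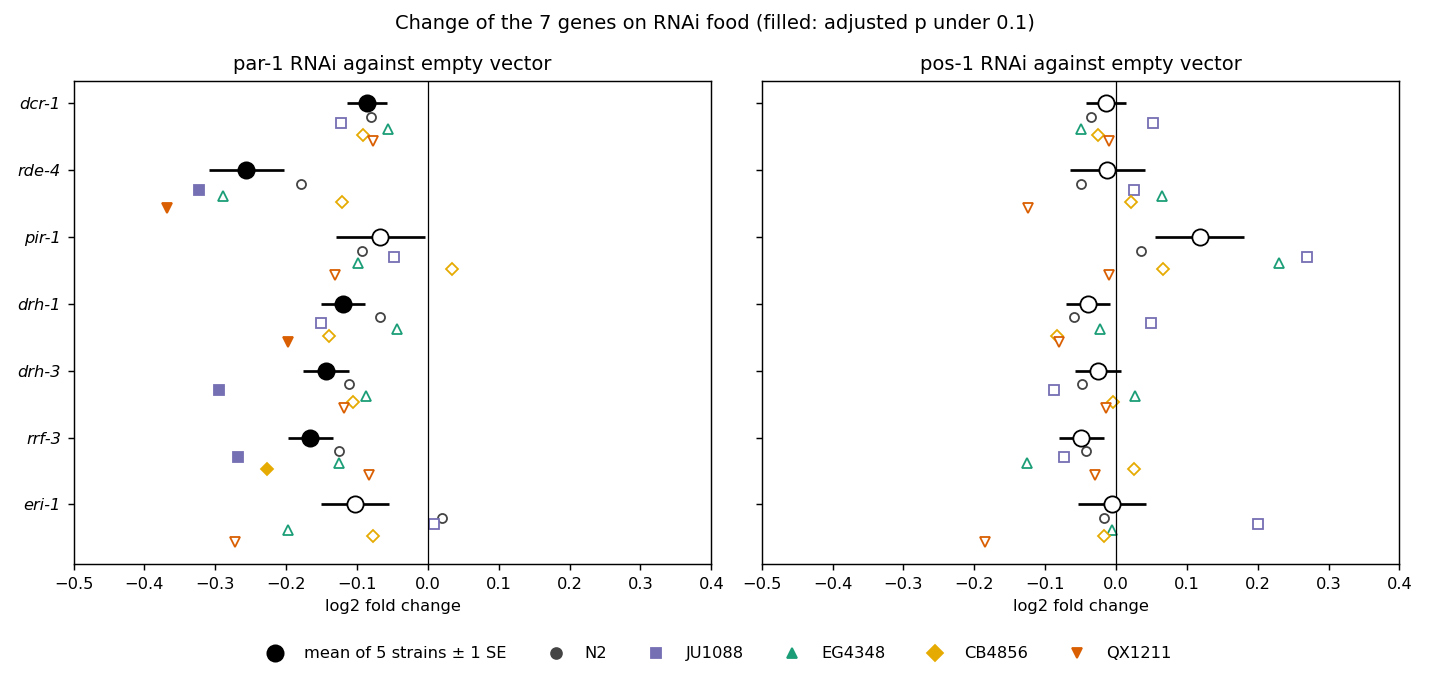
Change of each gene on *par-1* and *pos-1* RNAi food against empty vector (log2 fold change, horizontal axes); large points are means over 5 strains with 1 SE, small symbols are single strains, and filled symbols have an adjusted P under 0.1. On *par-1* RNAi 5 of the 7 means are filled and lie between -0.26 and -0.09, and on *pos-1* RNAi none is filled.

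On *pos-1* RNAi 0 of 7 members passed in any strain or over all strains, in edgeR and in DESeq2, and 0 of the 7 averaged values had an unadjusted P under 0.05. The averaged changes lay between -0.05 and 0.12 in log2, with 95% intervals that reached from -0.12 for *rde-4* to 0.24 for *pir-1*. Few genes moved at all on this food. Over strains 2.55% of all genes passed and 1.07% were also past a fold change of 1.5, and within N2 (0.221% and 0.215%), EG4348 (0.0753% and 0.0646%), CB4856 (0.167% and 0.156%) and QX1211 (0.0807% for both) the shares were smaller still. In JU1088, where *pos-1* itself was lowest, 10.7% passed and 8.23% were called, but no member. The count of genes called there was 1530, and 243 without replicate 2, the library with a shared fragment length estimate. There *pir-1* was at 374, 387 and 553 and *eri-1* at 512, 559 and 721, and the highest value of each was the library with a shared fragment length estimate.

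Set against *pos-1* RNAi instead of empty vector, 6 of the 7 members were lower on *par-1* RNAi (all but *eri-1*, adjusted P = 0.129), from -0.07 for *dcr-1* to -0.24 for *rde-4*. Of all genes 16% were lower in this comparison, and of those with at least 300 normalized counts 46.2%. The 2 smallest differences depended on single choices: *dcr-1* did not pass with RLE factors (0.119), without length offsets (0.18), with no filter (0.221) or without any 1 of 5 libraries (on *par-1* RNAi replicate 3 of N2, replicate 2 of JU1088 and replicates 1 and 2 of CB4856, and on *pos-1* RNAi replicate 3 of QX1211, adjusted P from 0.103 to 0.135), and *drh-1* not without length offsets (0.111), with no filter (0.174) or without replicate 3 of N2 on *par-1* RNAi (0.103). *eri-1* passed without the libraries with a shared fragment length estimate (0.0774) and without any 1 of 5 libraries (replicates 1 and 3 of JU1088 and 1 of EG4348 on *pos-1* RNAi, and replicate 3 of CB4856 and 2 of QX1211 on *par-1* RNAi, 0.044 to 0.0869). This comparison shares the *par-1* RNAi libraries with the one above. *pir-1* passed only here (-0.19 ± 0.06, SE, adjusted P = 0.0236), at 356 to 393 in group means on *par-1* RNAi and 390.2 to 444 on *pos-1* RNAi.

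Whether the response differed between strains was tested as the interaction of strain and treatment. No member passed in edgeR (0 of 7, adjusted P from 0.684 to 0.947, 0 at an unadjusted P under 0.05) or in DESeq2, where 240 genes or 1.29% of all genes did in edgeR. A member that passed in JU1088 and not in N2, such as *drh-3* (-0.30 and -0.11), is therefore not shown to respond differently in the 2 strains. For *rrf-3* the changes on *par-1* RNAi ran from -0.27 in JU1088 to -0.08 in QX1211, the strain where it was already low.

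The levels of the members rose and fell together only in part. Over the 15 group means, which share libraries and scaling within each strain and food, the Pearson correlation was 0.88 for *drh-1* and *rrf-3*, 0.82 for *drh-1* and *drh-3* and 0.75 for *drh-3* and *rrf-3*, the 3 members lowest in QX1211. For *pir-1* and *rrf-3* it was -0.23, and *eri-1* had its highest value with *pir-1* (0.55). Among about 8180 genes whose mean normalized count reached 50, the patterns most like *rrf-3* were those of *lin-41* (r = 0.95) and *msh-5* (0.95). Those most like *drh-1* were *tftc-3* (0.96) and *npp-24* (0.96), and those most like *drh-3* were *ced-5* (0.95) and *ubc-9* (0.94). *rde-4* was closest to *prp-38* (0.96) and F36A2.9 (0.95), *pir-1* to *sas-6* and *rnp-4* (0.90 each), *dcr-1* to *npp-4* and *inx-8* (0.85 each), and *eri-1* to *try-14* (0.85) and *rpa-2* (0.79). Each r is over 15 group means and describes likeness of pattern alone.

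At the level of transcripts, *rrf-3* has 1 annotated form and *drh-1* was assigned to F15B10.2a in full, with F15B10.2b listed at 0 in all 45 libraries. *drh-3* came at 99.8% from D2005.5.2. *pir-1* was divided between T23G7.5a (68.6% ± 8.15, SD over 45 libraries) and T23G7.5b, and *eri-1* between T07A9.5a (41.9% ± 7.93) and T07A9.5b (58.1%), with forms c and d listed at 0. For *dcr-1* and *rde-4* the 2 annotated forms are nearly of 1 length (5883 and 5952 bases, 1204 and 1206 bases), and their shares swung from 0 to 100% between replicates. In *rde-4* T20G5.11.1 was listed at 0 in 28 of 45 libraries. These shares are estimates, and the sums per gene used above do not depend on them beyond the length.

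Genes that work beside the 7 were compared between strains in the same way. Whether a gene that is low or at 0 in a wild strain is missing from its genome or poorly aligned was not tested. Of 9 ERI and 26G partners 7 differed on empty vector, of 14 other genes of double-stranded RNA and microRNA processing 5, of 17 genes of siRNA amplification 10, and of 7 genes of double-stranded RNA uptake 2, against 3 of the 7 members and 35.1% of all genes. *eri-6* and *eri-7* encode parts of 1 helicase that is joined by trans-splicing in N2. *eri-6* was at 107 ± 10.2 normalized counts in N2, 120.4 in JU1088 and 102 in EG4348, but at 266 ± 21.6 in CB4856 and 275 ± 52.6 in QX1211 (adjusted P = 3.42e-07). *eri-7* was at 215 ± 30.9 in CB4856 and between 434 and 478 in the other 4 strains (6.88e-06). *eri-6* was thus high in CB4856 and QX1211, and *eri-7* low in CB4856 alone. For *rrf-3* and *eri-1* no comparison of CB4856 with N2, JU1088 or EG4348 passed.

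The Argonaute *alg-3*, which acts in spermatogenesis, was near 0 (0.30 in EG4348 to 15.5 in CB4856, adjusted P = 0.00162). Among the amplification genes the polymerase *rrf-2* ran from 67.8 ± 12.7 in N2 to 205 ± 13.6 in QX1211 (1.1e-06). *mut-14* was highest in QX1211 (745 ± 60.1, elsewhere 391 to 444, adjusted P = 2.64e-05), and *rde-11* was lowest there (197 ± 9.47, elsewhere 278 to 380.1, 2.38e-05). On empty vector 6 to 10 of these 17 amplification genes were lower in QX1211 than in another strain and 1 to 2 higher.

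Among the uptake genes *sid-1*, the channel that imports double-stranded RNA into cells, was at 72.3, 71.3 and 68.5 normalized counts in QX1211, at 322, 314 and 356 in CB4856, and between 516 and 617 in the other 9 libraries on empty vector (adjusted P = 2.39e-11). *rsd-6* was at 1395 ± 42.7 in N2 and between 773 and 1017 in the wild strains (2.05e-07). Among the processing genes the GW182 protein *ain-1* was highest in QX1211 (833 ± 26.4, elsewhere 446 to 623, adjusted P = 6.84e-05), and Drosha, *drsh-1*, was lowest there (757 ± 15.5, elsewhere 913 to 1042, 0.000915). Dicer, which acts after Drosha in the microRNA pathway, was at 1736 ± 74.1 in the same QX1211 libraries and 1745 to 1827 elsewhere. Each SD here is over 3 libraries.

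**Figure D4:**
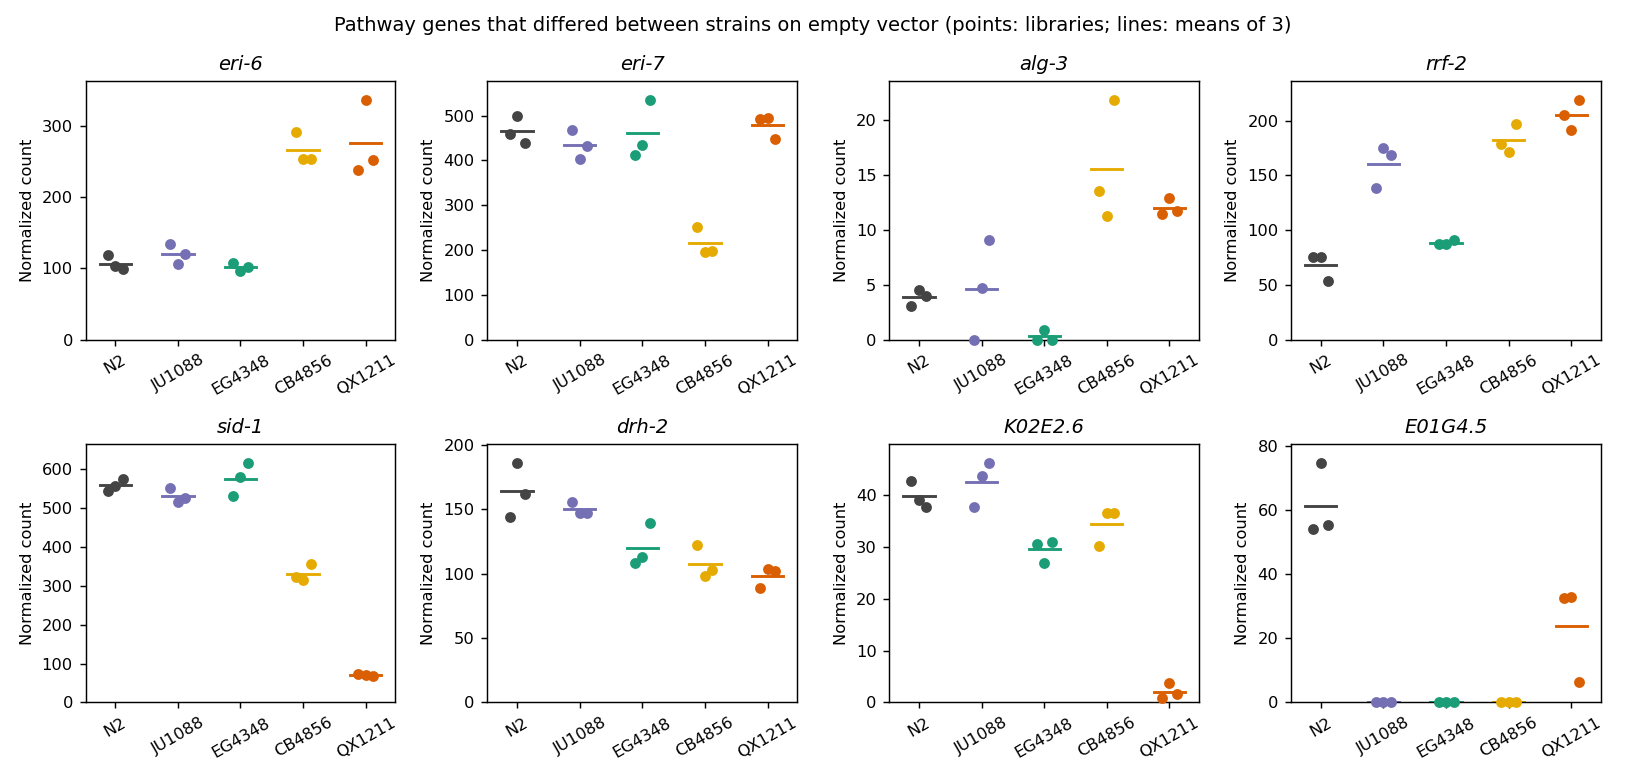
Normalized counts (vertical axes, from 0) of 8 genes of the wider pathway in the 15 empty vector libraries; points are libraries and lines are means of 3. *sid-1* is near 71 in QX1211 against 314 to 617 elsewhere, *eri-6* is high in CB4856 and QX1211, and *eri-7* is low in CB4856.

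All 4 targets of 26G RNAs on the list differed between strains on empty vector, and on both RNAi foods. K02E2.6 was at 0.78, 3.72 and 1.61 normalized counts in QX1211 and between 27.0 and 46.3 in the other 12 libraries (adjusted P = 1.02e-06). E01G4.5 was at 54.2, 74.9 and 55.4 in N2 and 32.5, 32.9 and 6.23 in QX1211, and listed at 0 in all 9 libraries of JU1088, EG4348 and CB4856 (6.53e-05). *ssp-16* was at most 10.9 (0.00345). Whether these levels are related to that of *rrf-3* was not tested. The small RNAs themselves were not measured here.

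Of 18 genes of the intracellular response, a defence programme that DRH-1 can start, 16 were in the table and 12 were tested on empty vector, of which 8 differed between strains. *skr-4*, a ubiquitin ligase subunit, was listed at 0 in all 3 CB4856 libraries and at 59.7 to 120.1 in the means of the other strains (adjusted P = 7.14e-08). *pals-22*, a repressor of the programme, was at 23.0 ± 1.93 in N2 and 38.2 ± 6.80 in EG4348, and between 6.16 and 7.29 in JU1088, CB4856 and QX1211 (4.2e-06). *eol-1* was at 22.9 ± 3.29 in QX1211 and at most 6.71 elsewhere (0.00105). These genes are weakly expressed, and the tests hold for the level of RNA alone.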

How the data were processed

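The data are 45 RNA-seq libraries of whole worms. The authors trimmed reads with Trimmomatic 0.3.9 and quantified them with Salmon 1.4.0, with sequence and GC bias correction and the strand of the read, on strain-specific transcriptomes in which the SNPs and indels of each strain had been written into the WS276 genome. The deposited file of each library lists, per transcript, an estimated count of reads, a TPM value and an effective length. A further deposited table holds signal values, which are gene counts that the authors normalized in DESeq2 1.32.0 by size factors and average transcript length. Structural differences between strains are not in these transcriptomes.

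Here the estimated counts were summed per gene, rounded and fitted with edgeR 4.0.16 in R 4.3.3 (TMM factors, transcript length offsets, trended dispersion, quasi-likelihood F test), over all genes with at least 10 estimated reads in the libraries of the model. One model held all 15 groups, and 3 models held the 5 strains on 1 food. The adjustment (Benjamini-Hochberg) covered all genes of a test, and a gene passed under 0.1. Standard errors were derived from the F statistic, and intervals are at 1.96 SE. Values in the text are the deposited normalized counts with the SD over 3 libraries. Genes and positions came from the Ensembl annotation of WBcel235, another file than the authors used. The steps were tested on simulated data. The members and lists were chosen with earlier results of these data known. Most other genes were named by rule (*drh-2* and those in the closing observations that are said to be were chosen after their values were seen): for each member the 2 most alike over the 15 group means, for each list up to 3 with the smallest P between strains on empty vector, and up to 2 with the largest called change on each RNAi. The alternatives were DESeq2 1.42.0, other scaling, filters and lengths, a replicate block, a model of each strain alone, TPM, and leaving out libraries. Sequences are not shown here.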

Additional observations from a re-analysis of the deposited data

How the results depend on the processing

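Most results kept their direction and side of the threshold under DESeq2, RLE factors and other filters. With no filter on low counts, 1 member in place of 3 passed the strain test on empty vector (*drh-1* and *drh-3* at adjusted P = 0.143 and 0.108). Without a fold minimum, 5 members passed on *par-1* RNAi over strains, 6 in *par-1* against *pos-1* RNAi and 6 within strains. With a model of the strain alone, 2 values within strains passed on *par-1* RNAi, of which 1 was among those 6. Without length offsets the averaged *pos-1* RNAi values of *dcr-1*, *rde-4* and *eri-1*, none of which passed, turned to 0.0033, 0.024 and 0.015. The members had 190 to 3683 estimated reads per library, which limits the detection of small changes.

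Counts over all genes, which serve as the background, moved more. The interaction passed 1.29% of genes, 6.06% with DESeq2, 2.76% with the filterByExpr filter, 2.18% without length offsets and 0.604% without the libraries with a shared fragment length estimate. With a model of the strain alone, *par-1* RNAi called 65 genes in N2 in place of 215, 946 in JU1088 in place of 1580 and 701 in EG4348 in place of 443, and *pos-1* RNAi called 24 in N2 (40 before), 602 in JU1088 (1530), 39 in EG4348 (12) and 32 in QX1211 (15). Without the libraries with a shared estimate, *par-1* RNAi called 560 genes in QX1211 (956 before), and *pos-1* RNAi 234 in JU1088 and 5 in QX1211. DESeq2 called 32 genes in EG4348 and 30 in QX1211 on *pos-1* RNAi, and 19 were called in EG4348 without length offsets.

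With each library left out in turn, and the dispersion trend of the full fit kept in the model of 45 libraries, the members that passed the strain test on *pos-1* RNAi numbered 0 to 3 (0 without QX1211 replicate 2). The averaged *pos-1* RNAi value ranged from -0.0397 to 0.0038 for *rde-4* and from -0.0398 to 0.0142 for *eri-1*. Over all genes the counts ranged from 139 to 381 for *pos-1* RNAi over strains (highest without N2 replicate 1 on empty vector), and the share for the interaction from 0.561% (without QX1211 replicate 3 on *par-1* RNAi) to 4.65% (without JU1088 replicate 1 on *pos-1* RNAi). On *par-1* RNAi they ranged from 133 to 219 in N2, 611 to 1672 in JU1088, 210 to 447 in EG4348, 375 to 708 in CB4856 and 500 to 981 in QX1211, and on *pos-1* RNAi from 243 to 2266 in JU1088, 4 to 12 in EG4348, 10 to 36 in CB4856 and 4 to 15 in QX1211.

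Whether replicate numbers pair the samples was not settled. Of 45 pairs of libraries with 1 number in a strain, 21 had deviations correlated above 0.1 (-0.31 to 0.54, median 0.08). Of 90 pairs with 1 number on the same food, 20 did (-0.49 to 0.33, median -0.04). The replicate block moved no count of calls by over 1.5 times (1901 genes on *par-1* RNAi over strains, 1918 without it, and 1.12% for the interaction), and 24 in place of 26 member comparisons with QX1211 passed under it. The block gives each replicate number 1 effect shared by all strains, so it cannot adjust for pairing within a strain.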

Other observations

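The wider pathway moved on *par-1* RNAi too, with 0 genes past a fold change of 1.5 in the ERI, processing, amplification and uptake lists. Over strains, 11 of 17 siRNA amplification genes fell and 1 rose (*rrf-2*, 0.28 ± 0.06 in log2, SE, adjusted P = 0.000305 in edgeR). Among those that fell were *mut-7* (-0.23 ± 0.03, 3.31e-07), a nuclease of secondary siRNA production, and the germline polymerase *ego-1* (-0.23 ± 0.04, 9.64e-05). Of 9 ERI partners 4 fell and 1 rose, of 14 other processing genes 4 fell and 4 rose, and of 7 uptake genes 1 fell and 3 rose. The genes that rose were *ain-1* (0.51 ± 0.07, 3.59e-07), *alg-1*, *alg-2* and *drh-2* in processing and *sid-2* (0.51 ± 0.08, 3.51e-06), *sid-3* and *rsd-3* in uptake. Of all genes 14.3% fell and 18% rose.

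Of these lists the intracellular response genes had the highest median. Of the 16 measured, 8 rose on *par-1* RNAi and 0 fell, 6 of them past a fold change of 1.5, with a median of 0.68 in log2 against 0.07 for all genes. *skr-5* had the largest called change (2.33 ± 0.56, adjusted P = 0.00353), followed by *pals-3* (2.13 ± 0.85, 0.0655), and *cul-6*, a cullin, rose by 0.73 (SE 0.10, 8.21e-07). *drh-1* fell by 0.12 in the same comparison. Of the 4 targets of 26G RNAs E01G4.7 rose (0.60 ± 0.25, 0.0811). On *pos-1* RNAi edgeR and DESeq2 passed 0 of the 67 genes of these 6 lists, and 5 had an unadjusted P under 0.05 in edgeR. Apart from *skr-5*, *pals-3* and E01G4.7, the genes named in these 2 paragraphs were chosen after their values were seen.

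Of the markers of other tissues, on *par-1* RNAi over strains 1 of 5 intestinal markers rose and 1 fell, 2 of 5 of body muscle and 2 of 5 of neurons rose, 2 of 5 of the hypodermis rose and 1 fell, 1 of 5 of the early embryo rose and 1 fell, and of 11 sperm markers 0 passed in edgeR. On *pos-1* RNAi 3 of the 5 early embryo markers fell, with a median of -1.51 in log2.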
